A study of Mus musculus with 8 samples.

Results

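Txnip, 3 further alpha-arrestin genes (Arrdc2, Arrdc3 and Arrdc4) and the transcription factor genes Mlx and Mlxip were followed across 4 conditions in a mouse fibroblastic reticular cell (FRC) line. These 6 genes were taken by symbol from the 55367 genes of the count table. Txnip was chosen by its higher transcript level with lactic acid in these libraries, so its values are a description and carry no test. The other 5 genes were taken for their family or their known link to Txnip, with earlier results of these data known, so their tests are not independent of that choice. The line came from lymph nodes of C57BL/6 mice that carry p53 ER/ER, and all conditions share this 1 line and its genotype. FRCs are the stromal cells that form the scaffold of a lymph node. Cells received RPMI with water (vehicle), RPMI conditioned by FRCs themselves (CCM), RPMI with 15 mmol/L lactic acid (LA) or RPMI taken from cultured B16.F10 melanoma cells (TCM). Each condition lasted 4 days and has 2 libraries, 8 in all. Vehicle is the control for LA and CCM is the control for TCM. The study sought tumor-derived factors that alter FRCs, and it names lactic acid as a major factor among others. It measured more lactate in B16.F10 TCM than in CCM, so TCM and LA are not media without and with lactate. Cultured cells of 1 line are a limited model of the node, since they lack its lymphocytes and flow.

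Txnip encodes thioredoxin-interacting protein, which binds reduced thioredoxin and lowers glucose uptake by promoting internalization of glucose transporters. It belongs to the alpha-arrestins, adaptors that bring NEDD4-family ubiquitin ligases to membrane proteins. Arrdc4 is its close relative and also limits glucose uptake, whereas Arrdc3 is known for adaptor roles toward the beta2-adrenergic receptor and integrin beta4. Mlxip encodes MondoA, a glucose-responsive transcription factor that works as a dimer with Mlx. Such dimers bind carbohydrate response elements, which are built from E-box-like motifs, and Txnip and Arrdc4 are well-known target genes of MondoA.

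The upstream sequences of Txnip, Arrdc4 and Mlx are shown for their E-box-like motifs. Txnip holds a spaced pair of them, while Arrdc4 and Mlx hold a lone full E-box and no such pair. Sequences come from RefSeq promoters on GRCm38.p6, in which all 6 genes had an entry, and are written 5′ to 3′ in the sense of the gene. Capitals mark CACGNG, the short E-box-like motif (N is any base, so the full E-box CACGTG is included), and CCAAT, the box read by the factor NF-Y, on either strand. Positions are counted back from the RefSeq start site, with −1 the base just before it. The Txnip window is chr3:96557707-96557956 on the plus strand. The Arrdc4 stretch is chr7:68749249-68749488 on the minus strand and ends at −11. The Mlx stretch is chr11:101087235-101087264 on the plus strand, from −55 to −26.
Txnip upstream: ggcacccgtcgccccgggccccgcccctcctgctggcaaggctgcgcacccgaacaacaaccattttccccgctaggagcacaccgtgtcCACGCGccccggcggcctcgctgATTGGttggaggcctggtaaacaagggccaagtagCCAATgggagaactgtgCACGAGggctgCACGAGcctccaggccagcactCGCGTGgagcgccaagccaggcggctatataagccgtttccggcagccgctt
Arrdc4 upstream: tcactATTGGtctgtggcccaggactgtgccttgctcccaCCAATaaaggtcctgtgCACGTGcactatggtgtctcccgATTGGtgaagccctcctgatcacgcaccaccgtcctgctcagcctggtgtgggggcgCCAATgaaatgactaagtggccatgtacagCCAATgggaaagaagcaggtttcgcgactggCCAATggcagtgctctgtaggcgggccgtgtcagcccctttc
Mlx upstream: ATTGGtgggttggatCACGTGactgagcct
In the Txnip window 4 matches to CACGNG and 2 to CCAAT were found. A pair of CACGNG matches lay in the same orientation with 5 bases between them, from −85 to −69 (chr3:96557872-96557888), which reads CACGAGggctgCACGAG. Among 32851 upstream windows of 250 bases, 23.5% held CACGNG, 80 held at least 4 matches (0.244%), and 15 held such a spaced pair (0.0457%). Arrdc4 held the full E-box once, from −193, together with 6 CCAAT boxes. CACGTG was present in 6.02% of all windows and CCAAT in 33.8%, and 19 windows (0.0578%) held at least 6 CCAAT boxes. Mlx also held CACGTG, from −40. Arrdc2 held a single CACGNG match from −77, and no match to CACGNG was found for Mlxip or in any of the 3 windows of Arrdc3. A match only says that these letters are present.

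**Figure D1:**
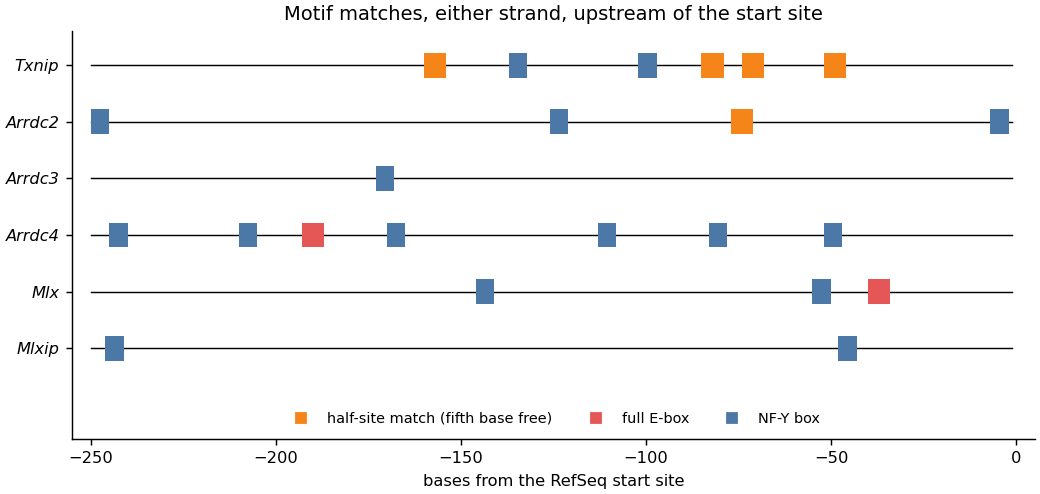
Motif matches on either strand in the 250 bases before the RefSeq start site of the 6 genes (for Arrdc3, 1 of its 3 windows), with the distance from the start site in bases on the x axis. Orange blocks are CACGNG matches other than the full E-box, red blocks the full E-box and blue blocks CCAAT, the NF-Y box. Txnip shows 4 orange blocks, Arrdc4 and Mlx show 1 red block each.

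Reads counted on genes ranged from 8232889 to 14107964 per library, so 3 counts, taken as the floor, equal 0.211 to 0.354 counts scaled to library size (CPM), which covers counting error only. Levels are given as CPM with TMM-scaled library sizes, and comparisons between genes use RPKM, the same value per kilobase of exon. A gene entered edgeR's quasi-likelihood test if 3 or more libraries gave it 10 or more counts, which left 12137 genes and kept all 6. A gene was called at a Benjamini-Hochberg adjusted P value under 0.05 and a log2 fold change (FC) beyond 0.39. The study describes the 2 libraries of a condition as biological replicates, and the labels do not name separate cultures. P values measure the spread between libraries of the same condition, with 1 estimate per gene that all 4 conditions share and that borrows from other genes. The spread of the TCM libraries therefore also enters comparisons that hold no TCM library. Within a condition, libraries differed by more than counting noise, with a chi-square per degree of freedom of 3.28 to 7.32 in vehicle, CCM and LA and 19.8 in TCM. Of 12 FRC markers, 8 were tested and Ccl21a was at 0 in all libraries, while Ccl19, Thy1 and Icam1 had at most 16 counts and were not tested. Summed, these markers stood at 18500 to 23800 CPM, nearly all of it from Col1a1 and Acta2, which fibroblasts in general express, and Il7 averaged 0.741 to 1.62 CPM. This compares with 0.218 to 1.85 for 5 hematopoietic markers (4 of them, with Ptprc, at 0 throughout), 1.53 to 5.5 for 5 endothelial markers (1 at 0) and 1.81 to 3.66 for 5 melanocyte markers (1, Tyr, at 0). Bulk RNA cannot tell a change in the number of cells that express a gene from a change per cell.

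Txnip (GRCm38, chr3:96557957-96561883, plus strand) stood at 172.7 and 178.3 CPM with vehicle. It was 210.3 and 203.1 CPM with CCM, 233.9 and 222.2 with TCM, and 383.5 and 433 with LA. The order of the conditions was LA, TCM, CCM and vehicle, and no library of a condition overlapped with those of its neighbor in that order. The place of TCM above CCM depends on the scaling, since without TMM factors their libraries overlapped, at 219.3 and 208.7 CPM with TCM and 216.6 and 210.9 with CCM, and the log2 FC between them was 0.002. Mean levels were 175.5 ± 3.97 CPM (SD, n = 2) with vehicle, 206.7 ± 5.07 with CCM, 408.2 ± 35.0 with LA and 228 ± 8.28 with TCM. LA over vehicle was a log2 FC of 1.22 (SE 0.0964), or 2.33-fold, a difference by which Txnip was chosen. TCM over CCM was 0.14 (SE 0.0956), CCM over vehicle 0.24 (SE 0.0959) and LA over CCM 0.98 (SE 0.0956). The TCM effect minus the LA effect was −1.08 (SE 0.135). Since Txnip was chosen for a rise with LA only, its values with TCM are part of that choice too. Among the 11964 tested genes with an exon length found by symbol, Txnip ranked 272 per length with LA, at 130.7 RPKM, and 770 with vehicle, at 56.2 RPKM. An antisense gene, Gm15441, shares 606 exonic bases with Txnip, and it had 1 to 6 counts per library against 1548 to 6146 for Txnip.

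**Figure D2:**
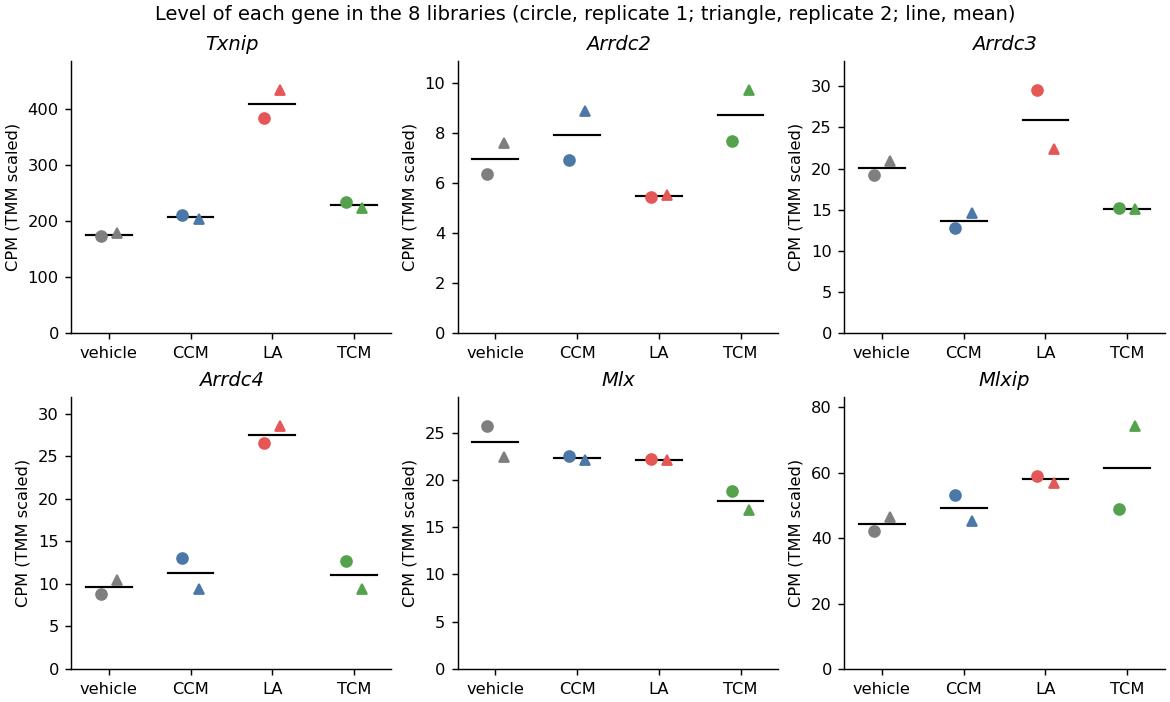
CPM (TMM-scaled, y axis from 0) of the 6 genes in each library of vehicle, CCM, LA and TCM. Circles are replicate 1, triangles replicate 2 and lines the mean of the 2 libraries. The LA libraries of Txnip (383.5 and 433) and of Arrdc4 (26.6 and 28.5) lie above all libraries of the other conditions.

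Arrdc4 was the 1 gene of the 5 tested members that was called between LA and vehicle, where 2.55% of all genes tested were called. Its level was 8.81 and 10.4 CPM with vehicle, 13.1 and 9.45 with CCM, 12.7 and 9.38 with TCM, and 26.6 and 28.5 with LA. Only the LA libraries stood apart, and those of the other 3 conditions overlapped. Arrdc4 rose with LA over vehicle, with log2 FC 1.51 (SE 0.187, adjusted P = 0.0021), which is 2.86-fold. The call held in all 18 alternative settings tried, with a log2 FC from 1.40 to 1.65. Arrdc4 lies on chr7:68736995-68749241, minus strand, and had 79 to 405 counts per library.

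In TCM against CCM the log2 FC of Arrdc4 was −0.03 (SE 0.2, 95% interval −0.47 to 0.41, adjusted P = 0.935). No tested member was called in that comparison, 0 of 5, where 19.1% of all genes were called. An unadjusted P value under 0.05 was found for 1 of the 5, Mlx, and DESeq2 called 0. The TCM effect was also tested against the LA effect directly. It was called for 1 of 5 members, Arrdc4, at −1.54 (SE 0.274, adjusted P = 0.00436), where 10.4% of all genes were called. Compared with LA, Arrdc4 was lower in TCM (log2 FC −1.32, SE 0.185, adjusted P = 0.000708). In that comparison 3 of 5 members were called, the others being Arrdc3 and Arrdc2, and 16.1% of all genes. LA against CCM gave 2 called members of 5, Arrdc4 and Arrdc3, against 0.626% of all genes. Arrdc4 was higher with LA there by 1.29 (SE 0.18, adjusted P = 0.0115). That call was lost without CCM replicate 2, LA replicate 1 or LA replicate 2, with log2 FCs of 1.08, 1.335 and 1.233. Each of these fits leaves 1 library in a condition, and fewer of all genes were called there as well. The comparisons with LA share its 2 libraries and are not independent of each other.

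Txnip and Arrdc4 had different levels but close fold changes. The ratio of Txnip to Arrdc4 per length was 18.7 and 19.6 with LA. It was 25.3 and 22.1 with vehicle, 20.8 and 27.8 with CCM, and 23.7 and 30.6 with TCM. Both LA ratios were below all others. Txnip made up 83.5% to 90.6% of the summed RPKM of the alpha-arrestin genes, with the highest shares in the LA libraries (88.6% and 90.6%).

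Arrdc3 (chr13:80883384-80896042, plus strand) was measured at 19.2 and 20.97 CPM with vehicle, 12.7 and 14.6 with CCM, 15.2 and 15.0 with TCM, and 29.5 and 22.3 with LA. Both conditioned media lay below vehicle and LA, without overlap. LA over vehicle was 0.35 (SE 0.151, 95% interval 0.02 to 0.68, adjusted P = 0.318) and CCM over vehicle −0.56 (SE 0.16, adjusted P = 0.126), and neither was called. The LA value was 0.15 without LA replicate 1 and 0.55 without LA replicate 2. Arrdc3 was higher with LA than with CCM by 0.91 (SE 0.155, adjusted P = 0.0275). That call was lost when any vehicle, CCM or LA library was left out, with a log2 FC from 0.711 to 1.114. Fewer of all genes were called in those fits as well. Against LA, TCM was lower (log2 FC −0.76, SE 0.157, adjusted P = 0.00682), and without LA replicate 1 the adjusted P was 0.0512. The neighbors in the order of levels, which were LA, vehicle, TCM and CCM, did not pass the test against each other. CCM against vehicle gave 0 called members of 5, with 1.3% of all genes called. Arrdc3 was the 1 member with an unadjusted P value under 0.05 there, DESeq2 called 0, and 4 of 18 alternatives called Arrdc3.

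Arrdc2 (chr8:70835129-70839720, minus strand) had 46 to 93 counts per library. Its level was 6.36 and 7.58 CPM with vehicle, 6.91 and 8.88 with CCM, 7.68 and 9.70 with TCM, and 5.44 and 5.50 with LA. The LA libraries were the lowest, the reverse of their place for Txnip and Arrdc4. LA over vehicle was −0.36 (SE 0.214, 95% interval −0.83 to 0.12, adjusted P = 0.527). Arrdc2 was called only between TCM and LA, at 0.67 (SE 0.209, adjusted P = 0.0491), and 11 of 18 alternatives lost this call, with adjusted P values up to 0.19. DESeq2 was among them, at an adjusted P of 0.126, and so was each vehicle, CCM or LA library left out and TCM replicate 2 left out.

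**Figure D3:**
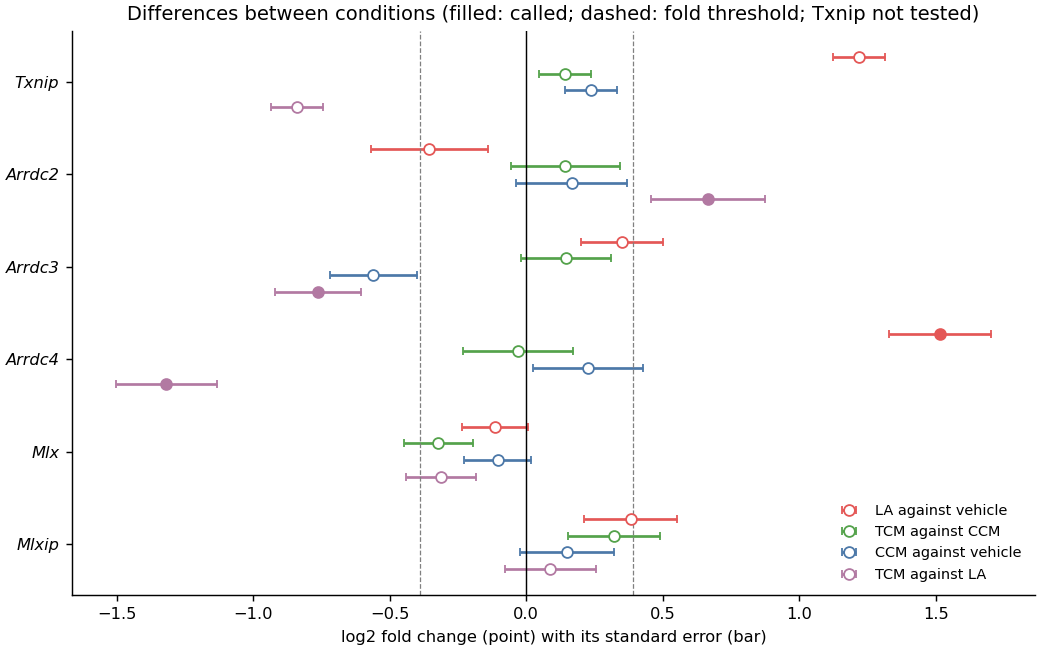
Log2 fold changes (x axis, points) with standard errors (bars) of the 6 genes in 4 comparisons. Filled points were called, dashed lines mark 0.39 in either direction, and Txnip was not tested. For LA over vehicle, Arrdc4 (1.51) and Txnip (1.22) lie apart from the other 4 genes, which range from −0.36 to 0.38.

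Mlx, the shared dimer partner, had its lowest levels with TCM. Its libraries (chr11:101087277-101092207, plus strand) gave 25.7 and 22.4 CPM with vehicle, 22.5 and 22.1 with CCM, 18.8 and 16.8 with TCM, and 22.2 and 22.1 with LA. Both TCM libraries were below the other 6. TCM against vehicle called 1 of 5 members, Mlx, where 17.5% of all genes were called. The log2 FC was −0.43 (SE 0.127, adjusted P = 0.0374), and 10 of 18 alternatives lost the call. They include DESeq2 (adjusted P = 0.12) and the removal of any single library except TCM replicate 1, with adjusted P values from 0.0552 to 0.23. TCM against CCM, the matched comparison, gave −0.32 (SE 0.126, adjusted P = 0.0957), which was not called. LA over vehicle was −0.11 (SE 0.122, 95% interval −0.38 to 0.15, adjusted P = 0.775). The 3′ end of Mlx shares 385 exonic bases with Psmc3ip on the opposite strand. Psmc3ip had 49 to 136 counts and was lower with TCM than with CCM, at −0.78 on the log2 scale (adjusted P = 0.0142). The kit marks strand, but whether the counting used it is not given in the sources used here, and the part of these shared bases in the Mlx value was not tested.

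Mlxip, which encodes MondoA, was not called in any of the 7 comparisons as fitted here, and some alternatives called it with TCM. It lies on chr5:123394798-123457932, plus strand, and measured 42.3 and 46.5 CPM with vehicle, 53.1 and 45.3 with CCM, 48.9 and 74.2 with TCM, and 59.1 and 56.9 with LA. The LA libraries lay above those of vehicle, and the 2 TCM libraries differed more than those of any other condition. LA over vehicle was 0.38 (SE 0.17, 95% interval 0.01 to 0.76, adjusted P = 0.336) and TCM over CCM was 0.32 (SE 0.168, adjusted P = 0.204). TCM replicate 2 decided the latter, since without TCM replicate 1 it was 0.59 and without TCM replicate 2 it was −0.01. In the same way TCM over vehicle, at 0.47 (SE 0.17, adjusted P = 0.0788), was 0.74 without TCM replicate 1 and 0.14 without TCM replicate 2. Each of these fits holds 1 TCM library and so no spread between TCM libraries. With both TCM libraries, Mlxip was called in TCM over vehicle with no filter on low counts (adjusted P = 0.0035). A replicate block in which the CCM numbers were crossed also called it there (adjusted P = 0.0245). Per length, Mlx exceeded Mlxip in 7 of 8 libraries, by a ratio of 1.57 to 2.53, and TCM replicate 2 gave 0.942. Mlxipl, which encodes the related factor ChREBP, had at most 1 count in any library.

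Over the 8 libraries, the profile of log2 CPM most like that of Txnip belonged to Helb, a DNA helicase gene (Pearson r = 0.965). Arrdc4 was the next of 12136 genes (r = 0.957), ahead of Trib2, a pseudokinase gene (r = 0.956), Emd, which encodes the nuclear envelope protein emerin (r = 0.955), and Yme1l1, a mitochondrial protease gene (r = 0.935). Seen from Arrdc4, Txnip ranked 1, followed by Rab3c, a vesicle GTPase gene (r = 0.932), Emd (r = 0.931), Tkfc, a kinase gene of fructose metabolism (r = 0.930), and Gm45338 (r = 0.923). These correlations are descriptions over 8 points that share the cell line and fall into 4 conditions of 2 libraries. The fold changes behind them differ in size. LA over vehicle was a log2 FC of 0.86 for Trib2 and 0.47 for Helb, against 0.21 for Emd and 0.17 for Yme1l1. Rab3c reached 1.76, from 1.03 to 3.52 CPM. Between the other members and Txnip r was 0.588 for Arrdc3, 0.481 for Mlxip, −0.09 for Mlx and −0.64 for Arrdc2.

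**Figure D4:**
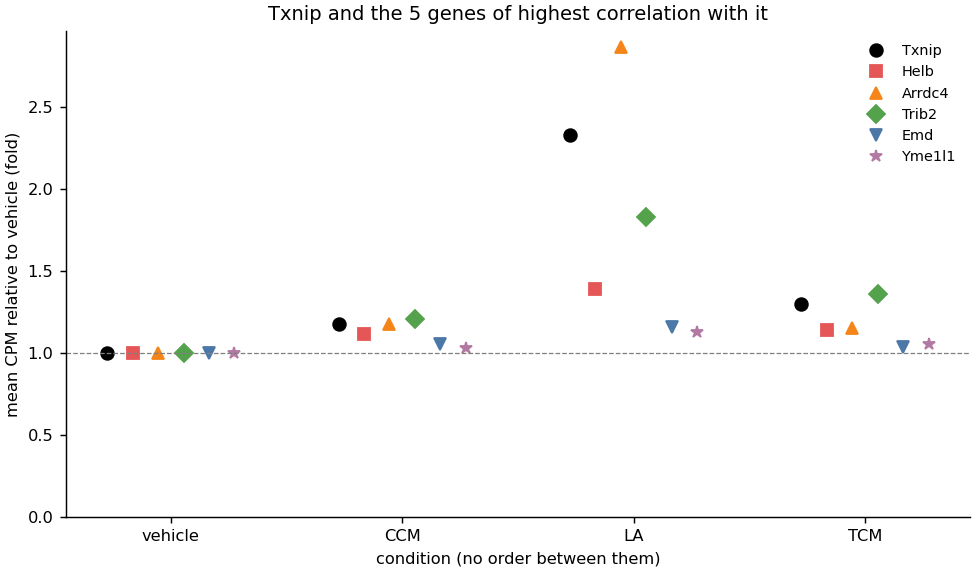
Mean CPM of 2 libraries relative to vehicle (y axis, fold, from 0) for Txnip and the 5 genes of highest correlation with it, by condition. The dashed line marks the vehicle level. Arrdc4 and Txnip show 2.86-fold and 2.33-fold with LA, and Emd and Yme1l1 stay close to the line.

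The spaced motif pair of the Txnip window was not shared by the other alpha-arrestins. It was found for 14 genes, of which 8 were tested. Apart from Txnip, the 7 tested genes (A430005L14Rik, Fem1b, Fnip1, Irak1bp1, Man2b2, Nfkb2 and Rbbp4) had a log2 FC with LA from −0.42 to 0.18. None was called by edgeR or DESeq2, where 2.55% of all genes were called by edgeR, and 1 had an unadjusted P value under 0.05. With TCM they ranged from −0.31 to 0.27, none was called by either tool against 19.1% of all genes by edgeR, and 2 had an unadjusted P value under 0.05. Nfkb2, an NF-kappaB subunit gene, had an adjusted P of 0.0343 with TCM but a log2 FC of −0.31, inside the fold threshold.

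The rest of the alpha-arrestin family was Arrdc1, an adaptor at the plasma membrane, at a log2 FC of −0.42 with LA (adjusted P = 0.466), and Arrdc5, with at most 1 count. Without Txnip the 4 tested family members showed a median of −0.002 on the log2 scale with LA and 0.145 with TCM, where the median of all genes was 0 in both. Of the 9 NEDD4-family ligase genes, which alpha-arrestins recruit, 0 were called with LA and 0 with TCM by edgeR and by DESeq2, and 2 had an unadjusted P value under 0.05 in each. Of all genes, edgeR called 2.55% with LA and 19.1% with TCM. Their medians were 0.086 and −0.013. The TCM effect minus the LA effect was called for 1 of the 9, against 10.4% of all genes. This was Wwp2, at −0.48 (SE 0.128, adjusted P = 0.0368), which DESeq2 did not call (adjusted P = 0.0785). For the 2 beta-arrestin genes, in the same comparisons, edgeR and DESeq2 called 0 with LA and 0 with TCM, and an unadjusted P value under 0.05 was found for 0 and 1 of them.

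Among 11 tested genes of the Mlx and Max network, the bHLH factors that share E-box motifs, 1 was called with LA, against 2.55% of all genes, and 4 with TCM, against 19.1% of all genes. The medians were −0.037 and 0.206. Mxd4, a Max-binding repressor, stood at 215 ± 6.13 CPM with vehicle (SD, n = 2), 182 ± 4.55 with CCM, 160 ± 3.55 with LA and 137 ± 3.48 with TCM. It fell by 0.43 with LA (SE 0.0861, adjusted P = 0.0282) and by 0.40 with TCM (SE 0.0866, adjusted P = 0.00725). In 7 of 18 alternatives the LA call was lost, with adjusted P values up to 0.235, and in 4 of 18 the TCM call. Mycl, a Myc family member, fell by 1.501 with TCM (adjusted P = 0.00112) and Mxd3 by 1.66 (adjusted P = 3.93e-05), whereas Mxi1, another repressor of the family, rose by 0.73 (adjusted P = 0.00146). For Mxd3 the TCM and LA effects differed, by −2 (SE 0.205, adjusted P = 0.00014). Mycn, with at most 5 counts, was not tested.

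Of 10 further genes that MondoA or ChREBP are known to regulate, 7 were tested. With LA, edgeR and DESeq2 called 0 of the 7 (2.55% of all genes by edgeR), 3 had an unadjusted P value under 0.05, and the median log2 FC was 0.261. With TCM 3 of the 7 were called, against 19.1% of all genes. Hk2, which encodes the glucose-phosphorylating enzyme hexokinase 2, was higher by 0.74 (SE 0.115, adjusted P = 0.00108), from 28.7 ± 0.558 to 48.0 ± 1.19 CPM (SD, n = 2). Khk, the fructose kinase gene, was higher by 0.79 (SE 0.239, adjusted P = 0.0375), a call lost in 6 of 18 alternatives, and without TCM replicate 1 it was 0.35 (adjusted P = 0.27). Klf10, a transcriptional repressor gene, fell by 0.65 (SE 0.109, adjusted P = 0.00173). With LA these 3 stood at −0.35, 0.27 and 0.38. The difference between the effects was called for 2 of the 7, against 10.4% of all genes. They were Hk2 (1.09, adjusted P = 0.00156) and Klf10 (−1.03, adjusted P = 0.0013). Pklr and G6pc were at 0 in all libraries and Gpd1 had at most 6 counts.

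Of 15 genes listed with the thioredoxin system, 14 were tested, and Nlrp3, an inflammasome gene, was at 0. None was called with LA by edgeR, which called 2.55% of all genes, while 4 had an unadjusted P value under 0.05 and DESeq2 called 1, Txn1. Txn1 encodes the thioredoxin that the Txnip protein binds, and stood at 363 ± 11.2 CPM with vehicle (SD, n = 2), 384 ± 9.29 with CCM, 572 ± 21.1 with LA and 631 ± 211 with TCM. Its log2 FC with LA was 0.66 (SE 0.175, adjusted P = 0.0837), and 6 of 18 alternatives called it. With TCM 6 of the 14 were called, against 19.1% of all genes. Txn1 rose by 0.72 (adjusted P = 0.0141), and 4 of 18 alternatives lost this call, with adjusted P values up to 0.0959. Without TCM replicate 1 it was 0.33, inside the fold threshold. The peroxidase genes Prdx5 (1.02, adjusted P = 0.00104) and Prdx6 (0.65, adjusted P = 0.00158), the reductase gene Txnrd3 (0.60, adjusted P = 0.00343) and the glutaredoxin gene Glrx (0.41, adjusted P = 0.0133) also rose. For Glrx, 6 of 18 alternatives lost the call. Map3k5, which encodes ASK1, a kinase held inactive by thioredoxin, fell by 2.73 with TCM (SE 0.321, adjusted P = 0.000184), from 5.74 ± 0.381 to 0.855 ± 0.13 CPM (SD, n = 2). Medians of the list were −0.021 with LA and 0.312 with TCM. The TCM effect minus the LA effect was called for 5 of the 14, against 10.4% of all genes. These were Prdx5 (0.96), Txnrd3 (0.95), Prdx6 (0.70), Glrx (0.59) and Map3k5 (−2.42).

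Among 6 known cargo genes of alpha-arrestins, 3 were tested. With LA, edgeR and DESeq2 called 0 (2.55% of all genes by edgeR), and 1 had an unadjusted P value under 0.05. With TCM 1 was called, against 19.1% of all genes. Slc2a1, which encodes the glucose transporter GLUT1, was 62.6 ± 3.82 CPM with vehicle (SD, n = 2), 58.7 ± 5.47 with LA, 52.8 ± 3.4 with CCM and 72.3 ± 1.26 with TCM. It rose with TCM over CCM by 0.45 (SE 0.108, adjusted P = 0.012), a call lost in 3 of 18 alternatives, and with LA it was −0.09 (SE 0.108, adjusted P = 0.795). The difference between the effects was 0.55 (adjusted P = 0.0429), the 1 call among the 3, against 10.4% of all genes. DESeq2 did not call it (adjusted P = 0.0588). Medians of the list were −0.143 and −0.127, and Slc2a3, Slc2a4 and Itgb4 had at most 8 counts.

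**Figure D5:**
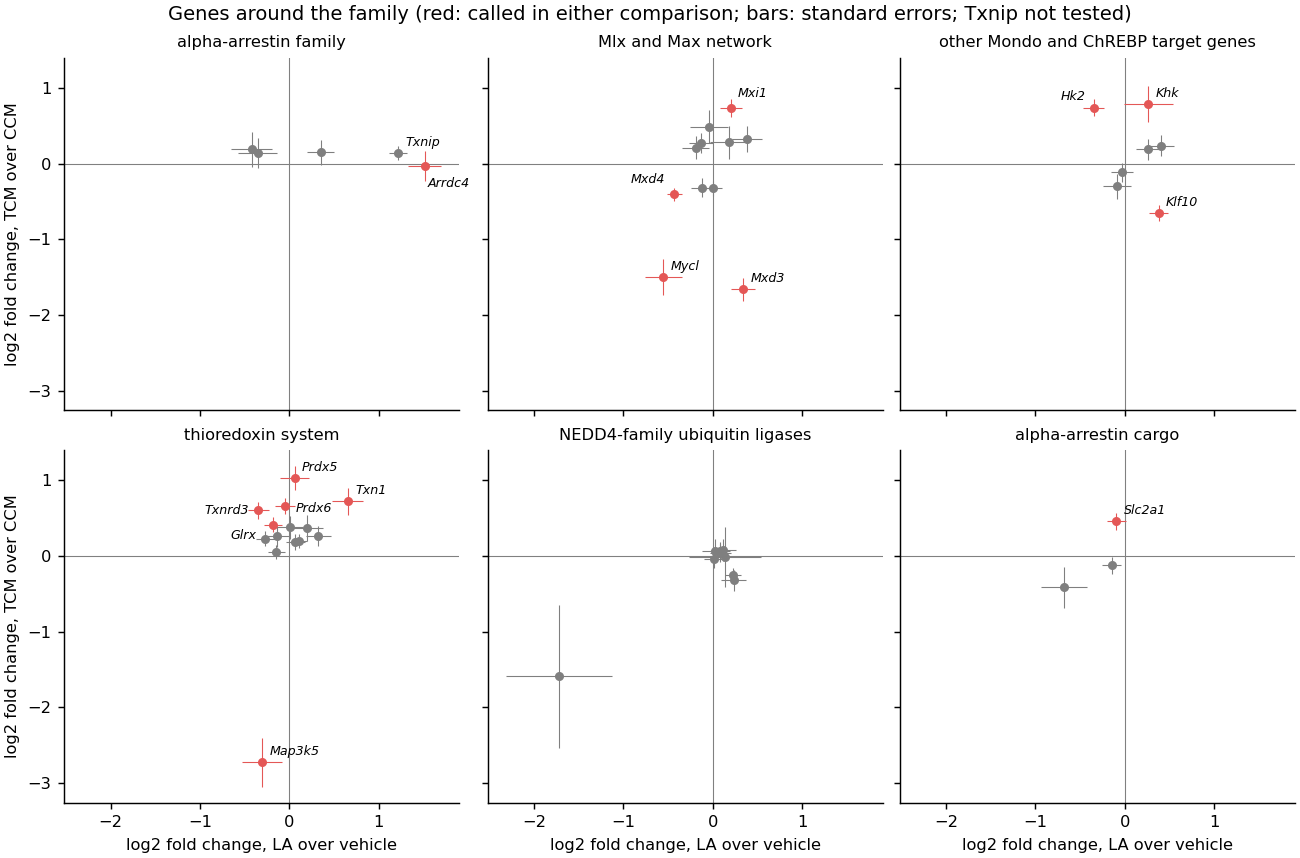
Log2 fold change with LA over vehicle (x axis) and with TCM over CCM (y axis) for the tested genes of 6 lists, with standard errors as bars. Red points were called in either comparison, and Txnip was not tested. Arrdc4 (1.51 and −0.03) is the red point farthest along the x axis, and Map3k5 (−0.30 and −2.73) the lowest.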

How the data were processed

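Per the labels and methods, poly(A) RNA was made into directional libraries and sequenced, and the authors aligned reads to GRCm38 with STAR 2.7.0a and counted them per gene with featureCounts (Subread 2.0.1), while DESeq2 1.32.0 was the submitters' own test. The strand setting is not given in the sources used here. The deposited values are raw counts of reads for each gene, not normalized. Another table, of 12137 genes, was 100% identical in its values to those counts. No column was left unused (0).

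Libraries were grouped by their labels. Counts were fitted with edgeR 4.0.16 in R 4.3.3 (glmQLFit, robust) with TMM factors (0.938 to 1.04), 1 mean per condition and all 8 libraries, and a fitted standard error accompanies each log2 FC. Genes needed at least 10 counts in at least 3 libraries. Alternatives were DESeq2 1.42.0, its size factors, no TMM factors, other filters and fold thresholds, only the libraries compared, replicate blocks and leaving out each library. The fit was also run on simulated counts drawn with the same spread for all genes and conditions. That run cannot show how the test performs on these data. With 2 libraries against 2, an exact permutation test cannot go below P = 0.333.

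Lists covered the alpha-arrestin family, the Mlx and Max network, other Mondo and ChREBP targets, the thioredoxin system, NEDD4-family ligases, alpha-arrestin cargo, beta-arrestins and cell type markers. All 6 members are named, with each tested list gene (markers aside) called with LA or TCM, those not tested, and the 5 genes most correlated with Txnip and with Arrdc4 (log2 CPM, prior count 2). The members and lists were chosen with earlier results of these data known. Other genes named were chosen after their values were seen. Positions and exon lengths come from GENCODE M21.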

Additional observations from a re-analysis of the deposited data

Results flagged for a closer look

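The TCM effect and the LA effect on Arrdc4 differed by a test of the difference itself (−1.54, SE 0.274, adjusted P = 0.00436 by edgeR). All 17 alternative settings kept this call, with values from −1.79 to −1.29 and adjusted P values from 1.91e-08 to 0.0306. With LA over vehicle the log2 FC was 1.51, and with TCM over CCM it was −0.03.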

How the results depend on the processing

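The count of called members was 1 in every setting tried for LA against vehicle (18 settings) and for the difference between the effects (17 settings), and no direction of a called value turned. The Txnip log2 FC of LA over vehicle ranged from 1.13 to 1.30 over 16 settings. Without TMM factors the median of all genes in TCM against CCM moved by −0.139, the Txnip value became 0.002, and 1 member was called (Mlx), as was 1 without TCM replicate 1 (Mlxip). Leaving out libraries gave 0 to 1 called members in TCM against CCM. For CCM against vehicle, 1 was called with no filter on low counts and 1 with only the libraries compared, and 0 to 1 with libraries left out. TCM against LA gave 1 to 3 called members and LA against CCM 0 to 2 with libraries left out. TCM against vehicle gave 2 without TMM factors, 2 with no filter, 0 with DESeq2, 0 with only the libraries compared, 0 beyond a log2 FC of 0.68, and 0 to 2 with libraries left out. Calls over all genes moved too, from 310 as fitted in LA against vehicle, 158 in CCM against vehicle and 76 in LA against CCM. In LA against CCM they fell whenever a vehicle, CCM or LA library was left out, the settings that lost members. In CCM against vehicle they rose in each setting that called a member. In TCM against vehicle, leaving out a TCM library moved the 2 kinds of count in opposite directions. Member counts are thus not to be read alone. The causes of these changes were not tested.

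Replicate numbers are shared across conditions but pair nothing by the labels. Deviations of same-numbered libraries correlated from −0.242 (CCM with TCM) to 0.353 (vehicle with LA). With the replicate block, 1 member was called in LA against vehicle and 0 in TCM against CCM, and no count of called members changed. Over all genes the block moved the count in LA against vehicle from 310 to 356. With the CCM numbers crossed it was 596, and the counts moved from 158 to 457 in CCM against vehicle, from 76 to 283 in LA against CCM and from 1268 to 1938 for the difference between the effects. In that fit TCM against vehicle gave 2 called members, Mlx and Mlxip, and the count over all genes moved from 2121 to 2477.

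Of 625 values for the 5 tested members under the alternatives, 583 stayed called or stayed not called, 31 lost a call and 11 gained 1. Some values that were not called changed sign, such as Arrdc4 in TCM against CCM, at −0.03 as fitted and 0.17 without TCM replicate 2. Depth per member was lowest for Arrdc2, at 46 to 93 counts per library.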
